A study of Drosophila melanogaster with 12 samples.

Results

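Many fly genes end their messenger RNA at more than 1 place. Cleavage at a site near the stop codon gives a short 3′ untranslated region (3′ UTR), and cleavage further along gives a longer tail that can carry binding sites for RNA-binding proteins and small RNAs. Cleavage inside an intron can instead give a transcript that lacks later exons. In the Drosophila testis, germ cells divide by mitosis as spermatogonia, pass into meiosis as spermatocytes and switch on a large set of testis genes at that step.

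The regions described here are 3′ extensions on the autosomes that lie wholly inside the annotated span of their gene. An extension is an interval that the authors listed for a gene, with a nearer and a farther edge along the gene's strand. The members were chosen by position alone: a row of the authors' deposited tables was taken when it was not on the X chromosome and when its extension began and ended within the gene's annotated start and end. This gave 518 rows for 288 genes, out of 2634 rows for 1457 genes. The SG table held 116 members among 751 rows, SG-tut 141 among 627, SG-bam 127 among 638 and SG-bgcn 134 among 618.

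RNA sequencing was done on 12 libraries in 5 groups. Germ cells in meiosis (SC) and in mitosis (SG) were cut by laser from wild-type testes, and each has 3 libraries. The other 3 groups, with 2 libraries each, are whole mutant testes that hold mainly germ cells stopped in mitosis: SG-tut carries the tut3 allele, SG-bam the bamBG/bamΔ86 combination and SG-bgcn the bgcn20093/bgcnQS2 combination, although the genotype label of the last reads "bcgn". tut, bam and bgcn are genes needed for spermatogonia to leave mitosis. Each deposited table sets 1 mitotic group against SC, so all 4 comparisons share the same SC averages. The tables give group averages without a spread, and nothing in the labels says that the libraries within a group are from different flies, so the authors' P may measure technical spread. A low-input cDNA kit served the dissected cells and an mRNA-Seq kit the mutant testes, so genotype, tissue and kit cannot be told apart where a mutant is set against SC. In whole tissue, fewer cells of a type and less RNA per cell cannot be told apart either. Library depth is unknown from these tables.

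For each row the authors gave the average level of the gene and of its extension, in a unit that the tables do not name, and the share of the gene's level that reaches into the extension, held at 100% where the extension level matched or passed the gene level. They also gave a false discovery rate (FDR). A row is called here when that FDR was 0.05 or less. The sources used here do not say whether the FDR tests the extension level or the share.

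Nearly all listed rows are called, members or not. Of the 116 SG members the authors' deposited table called 114, and the mutant tables called 139 of 141 (SG-tut), 123 of 127 (SG-bam) and 123 of 134 (SG-bgcn). The background over all listed rows was 96.4%, 97.1%, 95.6% and 94.5%, so the call itself says little about the members. The direction of the share separates rows more. All 114 called members of the SG table had the higher share in SG and 0 of 114 had it in SC. The exact 95% binomial limit for 0 of 114 is 3.18%, but it treats rows as independent draws. The rows come from the same group averages and are not replicates, so this limit covers counting of rows only. The background of rows called with the higher share in the mitotic group was 88.5% of all SG rows, and 7.86% were called with the higher share in SC. For SG-tut, 126 members were called with the higher share in the mutant testes and 13 with the higher share in SC, against backgrounds of 71.9% and 25.2%. The SG-bam table had 113 and 10 (background 73.5% and 22.1%), and the SG-bgcn table had 112 and 11 (background 71.0% and 23.5%).

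Of the called members, 100%, 90.6%, 91.9% and 91.1% had the higher share in the mitotic group, in the order SG, SG-tut, SG-bam and SG-bgcn. Autosomal extensions that start inside the gene and cross its annotated end gave 98.0%, 79.8%, 85.3% and 83.8%. Autosomal extensions that lie wholly beyond the gene end gave 77.8%, 57.1%, 61.0% and 57.0%. These differences between position classes were not tested.

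In the authors' deposited table for SG, the median member share was 1.49% among SC averages and 21.4% among SG averages. The mutant tables gave SC medians of 2.30%, 2.30% and 2.23% and mutant medians of 20.5%, 20.9% and 21.4%. Extensions that cross the gene end had mitotic medians of 23.6%, 6.90%, 10.1% and 9.12%, so in the SG table theirs was above that of the members. Over all listed rows the median was 11.2%, 6.68%, 7.92% and 7.16%, and for extensions wholly beyond the gene end it was 2.65%, 1.53%, 1.85% and 1.45%. In the same order, the median log2 fold of the share over members was 3.24, 2.50, 2.58 and 2.58, over extensions that cross the gene end 3.52, 2.05, 2.04 and 2.29, and over all listed rows 3.29, 2.01, 2.25 and 2.17. With 0.1 added to both levels before the share was formed, the member medians were 2.42, 1.49, 1.71 and 1.65.

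**Figure D1:**
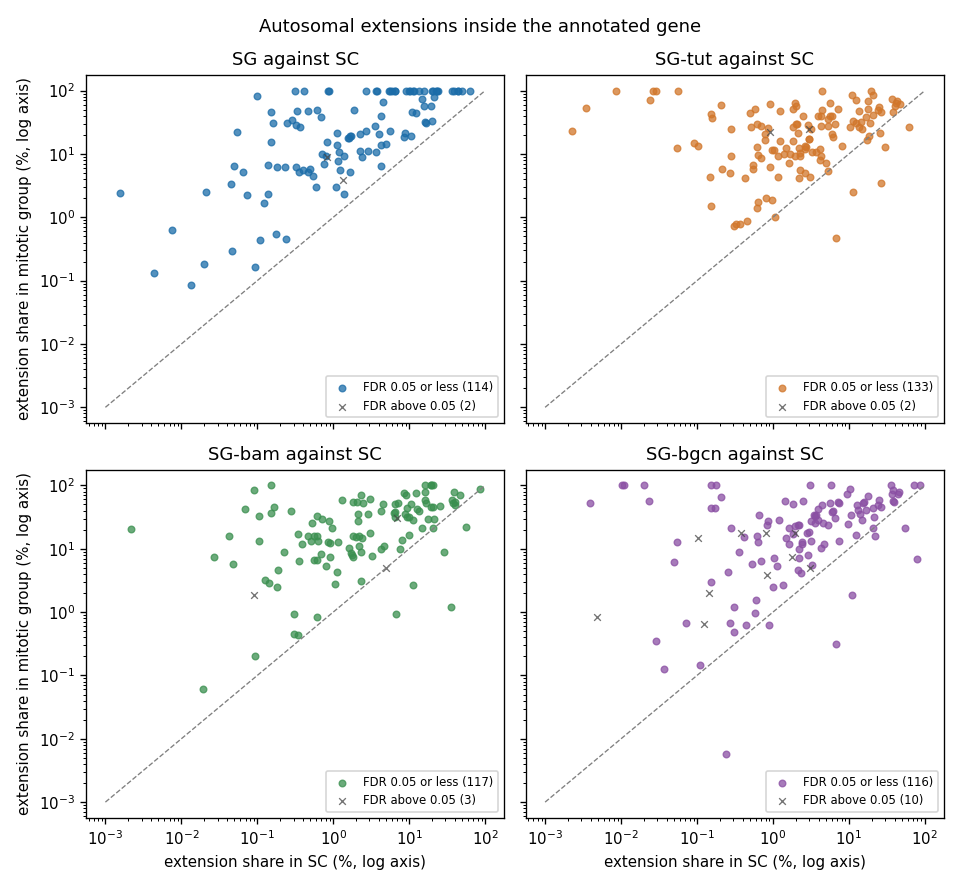
Each point is 1 member with an extension level above 0 in both groups; the x axis is the extension share in SC and the y axis the share in the mitotic group, both in percent on log axes, and crosses are members with an FDR above 0.05. Most points lie above the dashed line of equal shares, and in the SG panel a row of 29 points sits at 100%.

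A share of 100% was reached by 29 SG members (25%), 6 SG-tut members (4.26%), 5 SG-bam members (3.94%) and 11 SG-bgcn members (8.21%), and by none in SC. These were mostly genes of low level: the gene level of the 29 SG members ran from 0.08 to 15.4 with a median of 1, and that of the 5 SG-bam members from 0.16 to 0.97, in the authors' deposited tables. The extension was listed at 0 in the mutant testes for 5, 5 and 4 members and in SC for 1, 2 and 4 members of the SG-tut, SG-bam and SG-bgcn tables, and for none of the SG table. No fold is given for those members.

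By the rule of choice every member lies within the annotated gene, and most rows lay wholly in annotated 3′ UTR. The extensions were matched to the Ensembl annotation on the same coordinates. In all 4 tables together, 302 rows (58.3%) lay wholly in 3′ UTR and held no coding sequence. Another 8 rows (1.54%) lay in 3′ UTR in part with no coding sequence. A further 126 rows (24.3%) held some annotated coding sequence, as where an early end sits inside an intron or alternative exon and the extension runs over later exons. Some of these, such as the mub rows, were also annotated as 3′ UTR along their whole length. A further 71 rows (13.7%) lay in intron alone, and 11 rows (2.12%), from lola, CG17514, mRpS5, sbb and Vha26, could not be matched. Annotated 3′ UTR was touched by 78.8%, 78.3%, 80.8% and 77.1% of the matched rows in the SG, SG-tut, SG-bam and SG-bgcn tables. Over all listed rows that matched it was touched by 54.4%, 46.9%, 47.7% and 48.9%. Autosomal extensions that cross the gene end touched it in 100% of matched rows, and those wholly beyond the end in 0%.

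**Figure D2:**
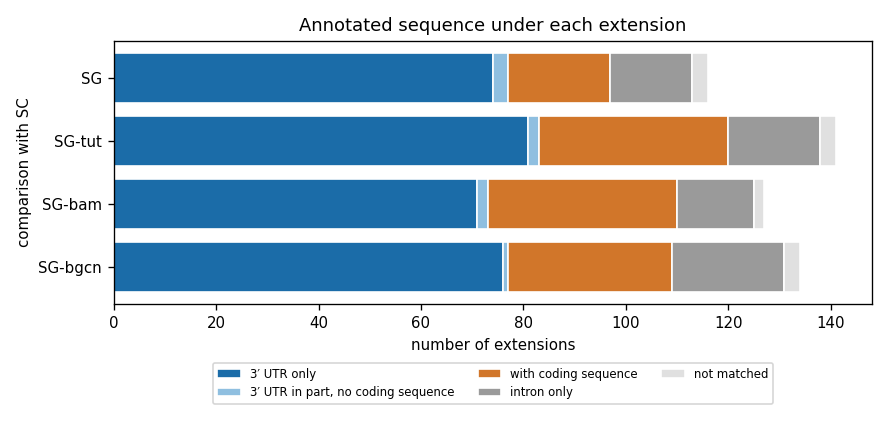
Bars show the number of extensions in each comparison with SC, split by the annotated sequence under them. The 3′ UTR class is the widest in every bar, with 74, 81, 71 and 76 extensions.

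The median shares differed among these classes. UTR extensions went from a median of 1.94% in SC to 20.2% in the mitotic group, those with coding sequence from 2.49% to 30.9%, and those in intron from 2.2% to 16%, over the rows of the authors' deposited tables. Median lengths were 660 bases in UTR, 1910 bases with coding sequence and 520 bases in intron, and the intronic ones ended a median of 3985 bases before the gene end. Of the 34 rows called with the higher share in SC, 20 lay in UTR and 12 in intron.

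The nearer edge of an extension was often at or near an annotated transcript end, in members and in all listed rows alike. In 172 of 507 matched rows (33.9%) the extension began on the base after such an end, and in 325 (64.1%) it began within 50 bases of one. The farther edge lay within 50 bases of an annotated transcript end in 180 rows (35.5%). Of the 144 genes that were members in more than 1 table, 139 had the same nearer edge in every table and 30 had the same farther edge. Lengths were multiples of 10 bases in 509 of 518 rows. Where the far edge differed, the SC value belongs to a different stretch, and it is given below for each table or as a range over the 4 tables.

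The median lengths of members were 765, 810, 810 and 680 bases in the SG, SG-tut, SG-bam and SG-bgcn tables, beside 720, 850, 1095 and 925 for extensions that cross the gene end and 575, 546, 620 and 541.5 for all listed rows. The crossing class was thus the longer in the 3 mutant tables. The shortest was 200 bases in each table, and the longest were 6880, 11060, 12710 and 25410 bases. In the mutant tables the medians were 860, 840 and 700 bases on the mutant side and 410, 282 and 500 bases on the SC side.

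**Figure D3:**
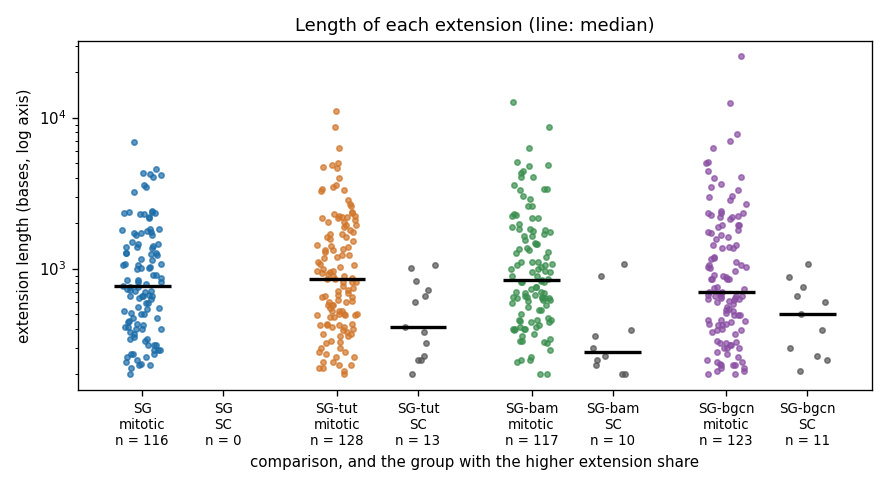
Each point is the length of 1 member in bases on a log axis, split by comparison and by the group with the higher share, with a line at the median. The SC side holds no SG member and 13, 10 and 11 members of the mutant tables, with medians of 410, 282 and 500 bases.

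The farther edge lay within 50 bases of the gene end in 150 rows (29.0%) and more than 1000 bases inside it in 215 rows (41.5%), with a median of 513 bases. At the limit of the rule, extensions just inside the gene end were those of Lrch, 1 base inside (24.2% in SC and 100% in SG), and Atg18b, 1 base inside (0.324% and 28.7%). Just outside were those of Btk29A, 2 bases beyond (14.7% and 85.8%), and Sema-1b, 2 bases beyond (2.60% and 100%), all in the authors' deposited table for SG. The members lay on 2L, 2R, 3L, 3R and 4 in numbers of 28, 25, 34, 23 and 6 for SG, and none lay on Y.

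The share rests on the gene level, so the gene level is given beside it. The gene level was higher in the mitotic group for 67 of the SG members, 92 of the SG-tut members, 89 of the SG-bam members and 86 of the SG-bgcn members, with no test of its own. Where the gene level moved by less than 2-fold, 36 of 38 SG members were called and all 36 had the higher share in SG, with medians of 1.38% in SC and 14.9% in SG. The same group held 40 SG-tut members (38 called, all higher in the mutant), 31 SG-bam members (31 called, 30 higher in the mutant) and 34 SG-bgcn members (29 called, all higher in the mutant). The extension level differed by more than 2-fold in all 518 member rows. At a steady gene level the share therefore had to move with the extension, and only its direction was open. Members called with the higher share in SC came mostly from genes whose level was at least 2-fold lower in the mutant: 13 of 13 for SG-tut, 7 of 10 for SG-bam and 10 of 11 for SG-bgcn.

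**Figure D4:**
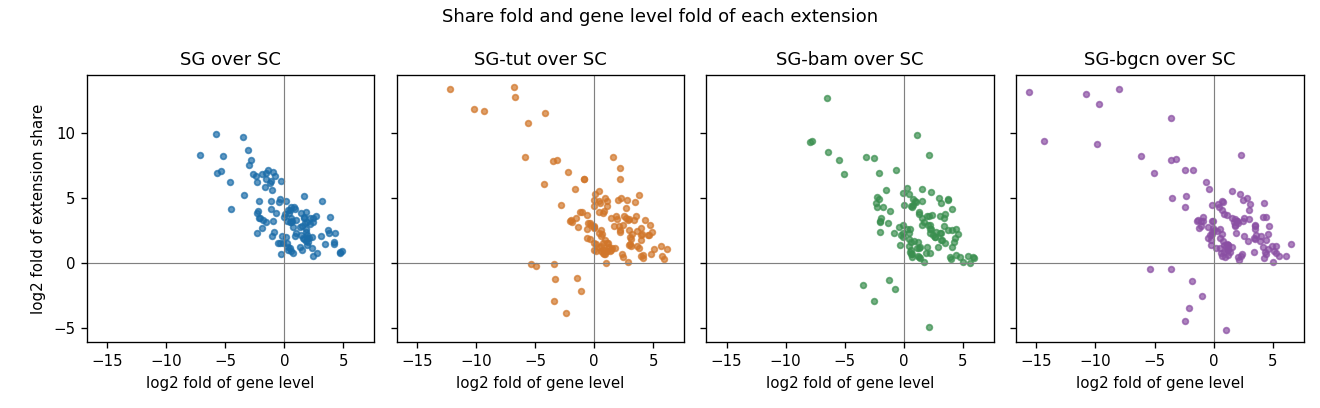
Each point is 1 member with an extension level above 0 in both groups; the x axis is the log2 fold of the gene level and the y axis the log2 fold of the extension share, mitotic group over SC. The gene level is the denominator of the share, so a slope to the lower right is built into the axes. Members near the vertical line, with little change in gene level, lie mostly above 0. The extension level differed by more than 2-fold in all 518 member rows, so only the side of these points was open.

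There were 17 genes with a member extension in all 4 tables, and the SC share was below every mitotic share in 17 of 17. The SG share was above those of all 3 mutants in 9 of them, below all 3 in 6 and between them in 2. These ranks set unlike stretches side by side in some genes. The par-1 extension was 1420 bases in SG and 6280 in SG-tut, and that of tun 1670 and 970. SG and the mutants also differ in genotype, tissue and kit, so the ranks were not tested. For 15 of the 17 the row was called in each of the 4 tables. The other 2, RhoGAP71E and RhoGEF3, had an FDR of 0.051 and 0.0644 in SG-bgcn, in the authors' deposited table. All 4 tables use the same SC averages.

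**Figure D5:**
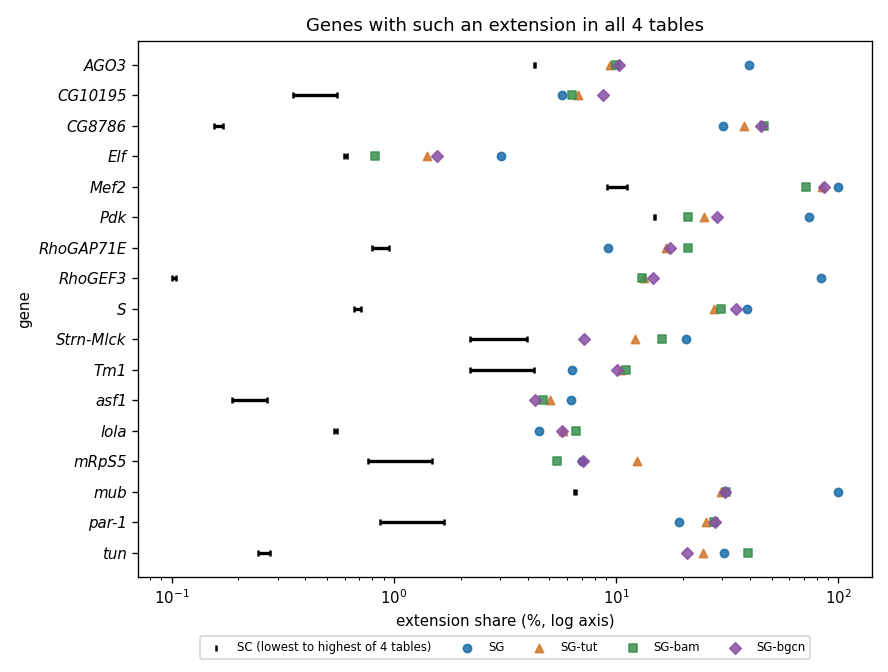
For each of the 17 genes, black marks span the lowest to highest SC share over the 4 tables and coloured marks give the share in each mitotic group, in percent on a log axis. All SC marks lie to the left of the mitotic marks, a side shared by all 116 SG members and most mutant members. RhoGAP71E and RhoGEF3 were not called in SG-bgcn.

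The lowest FDR of the SG members belonged to mub, which encodes a KH-domain RNA-binding protein. Its extension of 3600 bases lies at chr3L:21924125-21927724 (dm6) on the plus strand. All of it is annotated 3′ UTR, and 82 of its bases are also annotated as coding sequence. Per the authors' deposited tables, the share was 6.53% in SC against 100% in SG (FDR 6.14e-114), and 29.7%, 31.3% and 30.9% in the 3 mutants against 6.60%, 6.60% and 6.47% in SC. The gene level was lower in SG than in the mutants: 10.17 in SG beside 69.17, 67.81 and 69.93 in the mutants and 2.88 in SC, per the authors' deposited tables. The extension level itself was 11.5 in SG and 20.5, 21.2 and 21.6 in the mutants, per the authors' deposited tables.

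par-1 encodes a protein kinase of cell polarity. Its SG extension of 1420 bases went from 1.67% in SC to 19.1% (FDR 6.3e-43), in the authors' deposited table. In the mutants the extension ran on to 6280, 6260 and 6270 bases, with 2984 coding bases in each, and the share went from 0.870% to 25.4%, 0.872% to 27.7% and 0.871% to 27.8% in the authors' deposited tables. Gene levels were 9.62 in SC, 30.47 in SG and 68.4, 74.34 and 68.5 in the mutants, per the authors' deposited tables. The 4 rows share a nearer edge, and the SG extension is the shortest of them.

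asf1 encodes a histone chaperone that loads histones H3 and H4. Its short UTR extension of 230 to 330 bases had shares of 6.29% in SG, 5.03% in SG-tut, 4.68% in SG-bam and 4.31% in SG-bgcn, and of 0.187% to 0.268% in SC, in the authors' deposited tables. The gene level was 18.16 in SC and 162.58, 117.84, 157.26 and 146.44 in the mitotic groups, per the authors' deposited tables. All 4 mitotic shares lie close together, and all 4 rows were called (largest FDR 7.55e-06).

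AGO3 encodes a PIWI-family protein that silences transposons in the germline through small RNAs. Its extension of about 1060 bases lies in an intron at chr3L:23649467-23650536 (dm6, SG table), 39104 bases before the gene end, and touches annotated transposon insertions of the 1360 and mariner2 families. Per the authors' deposited table, the share was 4.27% in SC against 39.5% in SG (FDR 0.000386). In the mutants it was 9.35%, 9.98% and 10.3%, against 4.31% in SC, in the authors' deposited tables. Gene levels were 41.69 in SC, 49.39 in SG and 145.42, 109.96 and 123.81 in the mutants, per the authors' deposited tables. Whether reads of other transposon copies were counted there was not tested.

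CG8786, named Rnf146 in the annotation, encodes a ubiquitin ligase. Per the authors' deposited table, its share was 0.159% in SC against 30.4% in SG (FDR 9.03e-19). The mutants had 37.6%, 46.3% and 44.7% against 0.156%, 0.166% and 0.171% in SC, in the authors' deposited tables. Its gene level was 231.47 in SC and between 24.62 and 29.46 in the mitotic groups, while its extension level was 0.361 to 0.395 in SC and 8.95, 10.1, 11.4 and 11.3 in the mitotic groups, per the authors' deposited tables. Here both the extension level and the share were higher in mitotic cells while the gene level was lower.

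Tm1 encodes tropomyosin, a muscle and cytoskeletal protein. Its SG extension of 4200 bases went from 4.28% to 6.35% (FDR 0.0253), and the mutant extensions, of 11060, 12710 and 12550 bases, went from 2.30% to 10.5%, 2.21% to 11% and 2.23% to 10.1%, in the authors' deposited tables. Of the 34 genes on a list of muscle, fat body, blood and accessory gland markers, 2, 2, 2 and 3 were listed in the 4 tables: Tm1 with Cg25C in SG, and Tm1 with the accessory gland gene Acp95EF, and in SG-bgcn also Tm2, in the mutants. Each was at a higher level in the mitotic group and none was at 0. Their summed gene level was 18.74 in SC and 105.12 in SG for the SG rows, per the authors' deposited table. For the mutant rows it was 367.46 and 4146.87, 367.46 and 830.94, and 371.98 and 2400.31. Tm1 gave only 18.18 of each SC sum and 166.96, 157.86 and 212.92 of the mutant sums. The rest was Acp95EF alone in SG-tut and SG-bam, and Acp95EF with Tm2 in SG-bgcn. The part of other cell types in the Tm1 value was not tested.

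Mef2 and Strn-Mlck are also known for muscle. Mef2, a transcription factor of muscle development, went from 9.07% in SC to 100% in SG, and from 11.1% to 84.1%, 9.21% to 71.2% and 10.4% to 86.3% in the mutants, per the authors' deposited tables. Strn-Mlck, a giant myosin light chain kinase, went from 3.97% to 20.7% in SG, and from 2.2% to 12.2%, 2.21% to 16% and 2.23% to 7.19% in the mutants, in the authors' deposited tables. Their gene levels were low in SC, at 1.61 and 0.98, per the authors' deposited table.

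The remaining genes of the 17 have varied roles. S, known as Star, carries the EGF ligand Spitz out of the endoplasmic reticulum, and its share was 38.6% in SG and 27.6%, 29.7% and 34.7% in the mutants, with 0.661% to 0.709% in SC over the 4 tables, in the authors' deposited tables. Elf, the translation release factor eRF3, had small shares throughout, of 0.596% to 0.615% in SC over the tables, 3.04% in SG and 1.41%, 0.824% and 1.57% in the mutants, in the authors' deposited tables. Pdk, pyruvate dehydrogenase kinase, had 14.7% to 15% in SC over the tables, 73.9% in SG and 24.7%, 21.1% and 28.3% in the mutants, in the authors' deposited tables. lola, a zinc finger transcription factor made in many isoforms from alternative 3′ exons, had 0.538% to 0.556% in SC over the tables, 4.50% in SG and 5.75%, 6.63% and 5.73% in the mutants, in the authors' deposited tables. tun and CG10195, with UTR extensions, had 30.5% and 5.73% in SG and from 20.9% to 39.2% and from 6.31% to 8.76% in the mutants, beside 0.244% to 0.277% and 0.353% to 0.554% in SC, per the authors' deposited tables. mRpS5, a mitochondrial ribosomal protein, had 7.04% in SG and 12.4%, 5.43% and 7.12% in the mutants, beside 0.767% to 1.48% in SC, in the authors' deposited tables.

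Among RNA-binding and translation regulators, members had the higher share in mitotic cells in most rows, but not in all. From the list of mRNA localisation and translation control, 12 of 12 member rows, of AGO3, brat, orb, pum and rin, were called with the higher mitotic share, and from the list of splicing and nuclear RNA-binding regulators 8 of 8 rows, of how, mbl and mub. Of all member rows, 98.3%, 89.4%, 89.0% and 83.6% were called so in the SG, SG-tut, SG-bam and SG-bgcn tables, so these counts, from 5 and 3 genes, are near the rate of any members. The RNA-binding proteins aret and cpo, which are on neither of these lists, each had a row called with the higher share in SC. orb, a CPEB protein that controls poly(A) tails of stored messages, had a UTR extension of 2300 bases at 0.0547% in SC against 22.3% in SG (FDR 4.48e-54), per the authors' deposited table. Its SG-tut and SG-bgcn shares were 12.4% and 13.0%, and its gene level was 378.72 in SC against 45.21, 33.59 and 31.34, per the authors' deposited tables. brat, a translational repressor, had 11.4% in SC and 100% in SG, per the authors' deposited table. pum, a repressor that binds 3′ UTRs, was a member in the mutant tables only, at 10.2% to 27.0%, 9.34% to 31.7% and 10.7% to 33.6%, per the authors' deposited tables.

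Some of these changes were small in share although called. how, an RNA-binding protein of the STAR family, had 20.5% in SC and 21.3% in SG-bam and 20.6% and 21.6% in SG-bgcn, with an FDR of 3.16e-17 and 2.95e-21 in the authors' deposited tables. Its gene level was 1.81 in SC and 59.52 and 60.32 in the mutants, so the extension and gene levels were higher together, per the authors' deposited tables. Df31, a chromatin decondensation factor, had 0.371% and 0.787% (SG-tut), 0.339% and 0.441% (SG-bam) and 0.445% and 0.633% (SG-bgcn), beside gene levels of 12.18 in SC and 900.69, 762.95 and 868.71, per the authors' deposited tables. RpS26, the ribosomal protein, had 0.0134% and 0.0840% in the SG table and 0.0191% and 0.0616% in the SG-bam table, beside gene levels of 281.62 and of 3693.84 and 5363.78, per the authors' deposited tables.

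Several named members with large shares in the mutants spanned coding sequence. Pcf11, a subunit of the cleavage and polyadenylation machinery itself, had an extension of 8610 bases with 5852 coding bases that went, per the authors' deposited tables, from 0.519% in SC to 26.2% in SG-tut and 25.6% in SG-bam. These 2 rows were the members from the list of cleavage and polyadenylation machinery. The extension ended on the last base of the gene. Sik3, a salt-inducible kinase, went from 0.151% to 43.0%, 0.150% to 36.1% and 0.151% to 44.7% in the 3 mutant tables, with 2336 coding bases in each extension, in the authors' deposited tables. Mical, an enzyme that oxidises and takes apart actin filaments, went from 0.00224% to 22.9% in SG-tut and 0.00221% to 20.9% in SG-bam, over 3138 and 3238 coding bases, per the authors' deposited tables. In SG its extension was shorter, with 267 coding bases, and the share was 0.00761% in SC and 0.629% in SG, per the authors' deposited table. The Mical gene level was 1857.93 in SC and 75.29, 17.98 and 21.05 in SG, SG-tut and SG-bam, per the authors' deposited tables. mbl, a splicing regulator of muscle and eye development, had the longest extension, of 25410 bases in SG-bgcn with 3779 coding bases, and its share went from 2.79% to 18.0%, per the authors' deposited tables.

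Developmental transcription factors gave 18 member rows from 11 genes, and 18 of 18 were called with the higher mitotic share, which is near the 83.6% to 98.3% of all member rows. pros, a homeodomain transcription factor that is not on the list, had the call on the SC side in SG-bam and SG-bgcn, with its extension listed at 0 in both. The list included the ecdysone receptor EcR, at 22.6% in SC and 99.6% in SG, and Eip75B, another ecdysone-pathway receptor, at 16.8% and 30.6%, per the authors' deposited table. Hr39, a nuclear receptor, had 10.9% in SC and 46.6% in SG in an intron, per the authors' deposited table. fru and dsx act in sex determination: fru had 1.15% in SC and 7.88% in SG, and dsx had 3.88% in SC and 28.4% in SG-bgcn, in the authors' deposited tables. pan, the TCF factor of Wnt signalling, had 6.20% and 18.4% in SG-tut and 5.31% and 23.9% in SG-bgcn with gene levels of 18.61 and 18.59 in the SG-tut table, per the authors' deposited tables. EcR had low gene levels, of 0.33 for SC and 1.28 for SG, per the authors' deposited table.

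Genes with very high SC levels gave several of the largest folds of the share. IA-2, a tyrosine phosphatase-like protein, had gene levels of 1505.42 for SC and 27.53 for SG, and its share went from 0.00155% to 2.41%, in the authors' deposited table. In SG-tut and SG-bgcn its share was 100% at gene levels of 0.33 and 0.03, per the authors' deposited tables. CG12163, a cathepsin of the papain family, went from 0.0264% to 100% in SG-tut and from 0.0111% to 100% in SG-bgcn in an intron, at gene levels of 2149.77 in SC and 1.87 and 1.24 in the mutants, per the authors' deposited tables. cnc, a bZIP factor of the oxidative stress response, went from 0.310% to 100% in SG at gene levels of 244.79 and 1.71, per the authors' deposited table. Its extension level in SG was 24.3, far above that gene level. In SG-tut the extension levels of CG12163 and IA-2 were 49.5 and 3.28, also above their gene levels. The 100% is in these cases a ratio held at its limit, and does not show that every transcript was long. aly, which switches on spermatocyte genes, went from 0.152% to 15.5% in SG at gene levels of 72.72 and 14.12, per the authors' deposited table.

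Of the other lists, germline stem cell and spermatogonial regulators held 9 member rows of 20 listed, with 8 called higher in the mitotic group and 1, aret, higher in SC. Kinase, phosphatase and calcium signalling had 8 member rows, all called higher in the mitotic group, from Cam, mts, par-1 and wdb. Small GTPases and cytoskeleton had 14 rows, of which 13 were called higher in the mitotic group and 1 was not called. These counts too are near the 83.6% to 98.3% of all member rows. Hub and cyst cell genes, which mark the somatic cells of the testis, had 2 rows, CadN in SG (6% in SC and 100% in SG) and dally in SG-bgcn (0.177% and 100%), per the authors' deposited tables. The 11 SG-bgcn members at 100%, dally among them, had SG-bgcn gene levels of only 0.01 to 1.24. Of the 24 genes on that list, 3, 0, 1 and 2 were listed in the SG, SG-tut, SG-bam and SG-bgcn tables, and 2 of 3, 1 of 1 and 1 of 2 had the higher gene level in the mitotic group. Their summed gene level was 143.81 for SC and 19.6 for SG, 2.7 for SC and 9.99 for SG-bam, and 141.47 for SC and 9.13 for SG-bgcn, per the authors' deposited tables. In the SG-bgcn sum, dally alone gave 138.77 of the SC value. The spermatid list, by comparison, summed to 2876.99 for SC and 177.33 for SG. Lists of spermatocyte programme, spermatid differentiation, cell cycle and chromatin gave 1, 3, 1 and 2 rows, from aly, orb, Incenp and trx, and cytosolic ribosomal proteins gave 2 from RpS26. Ubiquitin and mitochondrial lists gave none; mRpS5 was not on the latter.

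Members with the higher share in SC were few and lay in the mutant tables alone: 34 rows of 20 genes. Of these, 14 had a mutant extension listed at 0 and 20 had a mutant gene level under 1, which leaves 13 rows with a gene level of 1 or more and an extension above 0. Among those 13, the shares of Dhit and yuri differed by less than 2-fold. Dhit had 17.3% in SC and 16.6% in SG-tut. yuri had 1.06% in SC and 1.02% in SG-tut, and 0.878% in SC and 0.636% in SG-bgcn. CG2082 was among the 4 genes in all 3 mutant tables, with ttv, Ace and Jon74E. Its intronic extension of 264 bases, at chr3R:5758998-5759261 (dm6) on the minus strand, had 6.80% in SC and 0.479%, 0.917% and 0.313% in SG-tut, SG-bam and SG-bgcn (FDR 2.93e-24, 2.04e-22 and 3.14e-26), in the authors' deposited tables. The gene level was 266.94 in SC and 51.27, 47.37 and 48.98 in the mutants, per the authors' deposited tables.

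ttv, which makes heparan sulfate chains, had 11.2% in SC and 2.47% in SG-tut, 11.1% and 2.71% in SG-bam, and 11.1% and 1.87% in SG-bgcn, in the authors' deposited tables. aret, the translational repressor Bruno, had 78.8% in SC and 6.98% in SG-bgcn (FDR 2.2e-48) over a UTR extension of 760 bases, in the authors' deposited table, at gene levels of 15.57 and 3.7. Pif1A had 30.2% in SC and 13.0% in SG-tut in an intron, per the authors' deposited tables. That stretch also touches an annotated exon of CG33189 on the same strand, and the part of CG33189 in these values was not tested. ATPsynG, a subunit of mitochondrial ATP synthase, had 0.242% in SC and 0.00579% in SG-bgcn, at gene levels of 506.02 and 1034.87, per the authors' deposited tables. Ace, acetylcholinesterase, and Jon74E, a serine protease, had mutant gene levels under 1.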

How the data were processed

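Members and gene lists were chosen with earlier results of these data known. Build dm6, DESeq2, Cuffdiff 2.2.1 with Cufflinks 2.2.1, TopHat2 2.1.0, Trimmomatic 0.33, FastQC 0.11.3 and CASAVA are named in the submitters' processing notes, without their roles. Each of the 4 deposited tables holds, per the file headers, group averages of gene and extension level (a signal of unnamed unit), the share as a fraction, log2 folds, and P and FDR (p-values). The share equals the extension level over the gene level, each with 1e-05 added, held at 1.

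The authors' FDR was used at 0.05, with no test of this work's own. Counts, medians and annotation matches were computed with Python 3.11.15, pandas 2.3.3 and scipy 1.17.1. The code was tested on simulated data. Named genes were taken by a fixed rule: largest folds in each table, up to 3 per list, members called in all 4 tables, the longest, and the highest gene levels; 42 genes were named by it, and other genes named in the text were chosen after their values were seen. Counting strand is not given in the sources used here, so overlapping genes cannot be told apart. No sequence is printed, as no genome sequence was used here. An item withheld for evaluation is not reported here.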

Additional observations from a re-analysis of the deposited data

Results flagged for a closer look

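cpo, an RNA-binding protein of the nervous system, was the only gene among the members with opposite directions in 2 tables: its log2 fold of the share was 1.57 in SG and -4.89 in SG-bam, per the authors' deposited tables. The 2 extensions are neighbours and not the same stretch: the SG extension is 220 bases at chr3R:18017803-18018022 (4.93% in SC and 14.6% in SG, FDR 0.0447), and the SG-bam extension is 360 bases at chr3R:18017443-18017802 (35.6% and 1.20%, FDR 0.0442). The gene level was 3.14 in SC, 2.89 in SG and 13.61 in SG-bam. The difference between the tables was not tested.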

How the results depend on the processing

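Of 48 alternatives to 20 results, 35 were labelled as the same, 13 as moved and none reversed. The counts of listed members had no spread set. Widening the gene by 10 bases gave 135, 158, 143 and 149 members in the order SG, SG-tut, SG-bam and SG-bgcn. These counts were among the 35. All called SG members lay on the mitotic side, so filters on that share could only return 100%. Requiring an extension above 0 kept all 116 SG members, so that median could not move. Requiring the extension to lie at least 100 bases inside the gene end left 76, 89, 77 and 89 members for SG, SG-tut, SG-bam and SG-bgcn. Adding 0.1 to both levels before the share was formed gave median log2 folds of 2.42, 1.49, 1.71 and 1.65. Counting only members with at least 90% of their bases in annotated 3′ UTR gave 68.1%, 60.1%, 60% and 60.3% of matched members. With a gene level of at least 1 in both groups, 95.4% of called SG-tut members had the higher mitotic share. The cause was not tested. Low gene levels limit single shares, above all those at 100%. No paired analysis was possible because the tables hold group averages only, and for the same reason no library could be left out. The search for poly(A) signals was not run, as no genome sequence was used here.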

Other observations

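Of the 518 member rows, 40 rows of 24 genes touched an exon of another annotated gene, with annotated transposon insertions counted as genes. Among these 40, 25 rows of 14 genes touched a transposon insertion. The 40 rows were 11, 10, 10 and 9 in the SG, SG-tut, SG-bam and SG-bgcn tables. Over all listed rows the counts were 158 of 751, 132 of 627, 153 of 638 and 136 of 618. The transposon rows included AGO3 in all 4 tables and CG12547 in 3, whose UTR extension overlaps an insertion of the 1360 family. Of the 288 member genes, 60 had a row of another position class in another table.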
